A study of Mus musculus with 4 samples.

Results

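The protein folding machinery of the endoplasmic reticulum (ER) and its stress response were examined through 10 genes in sorted cells of mouse mammary tumours. The genes are Hspa5, Hsp90b1, Calr, Pdia4, Dnajb9, Sdf2l1, Ern1, Xbp1, Herpud1 and Edem1. They were given by symbol and matched through Ensembl identifiers to the GENCODE M21 annotation of build GRCm38. Each was found in 1 row, so 10 of the 51826 genes in the deposited table are described, and all 10 were among the 21607 genes that passed the filter on low counts. RNA came from 2 C3-T+ tumours of genotype Elf5+/- (HET) and 2 C3-T+ tumours of genotype Elf5+/+ (WT), so every sample carries the C3-T transgene. Genotype at Elf5, a transcription factor gene of the luminal progenitor and alveolar lineage, is the difference between groups that the labels name. The labels give no age, strain, treatment or transgene promoter. The titles of both HET samples share a number and differ only in their tumour number, so they may be 2 tumours of 1 mouse. The WT titles carry other numbers, which also differ from each other. Genotype therefore cannot be told apart from whatever these numbers stand for. The p-values therefore speak of the spread among these 4 samples, which may be technical in part and, within HET, may be that between tumours of 1 mouse.

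The library labelled WT 2 stood apart from the others. It lay at 137.9 on the first principal component (62% of the variance), against -53.0 to -36.4 for the other 3 libraries, and 44.5% of its genes had no count, against 29.9% to 31.3%. Elf5 itself had 5.39 and 10.6 CPM (counts scaled to library size with TMM factors) in HET and 35.6 CPM in WT 1 and 4.70 CPM in the library labelled WT 2. The labelled WT 2 value is thus below both HET values, so directions by genotype depend on a label that Elf5 goes against. The labelled tissue was borne out by epithelial markers: Epcam, Krt8, Krt18 and 7 further genes were detected in all 4 libraries and summed to 2547 and 2318 CPM in HET and 3709 and 3386 CPM in WT. Markers of the cell types targeted by the sort were also present, with pan-leukocyte sums of 397 and 339 CPM in HET and 353 CPM in WT 1 and 27.1 CPM in the library labelled WT 2. Fibroblast markers summed to 4635 and 5731 CPM in HET and to 7645 CPM in WT 1 and 23632 CPM in the library labelled WT 2. In RNA from mixed cells, fewer cells of a type and less RNA per cell cannot be told apart.

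**Figure D1:**
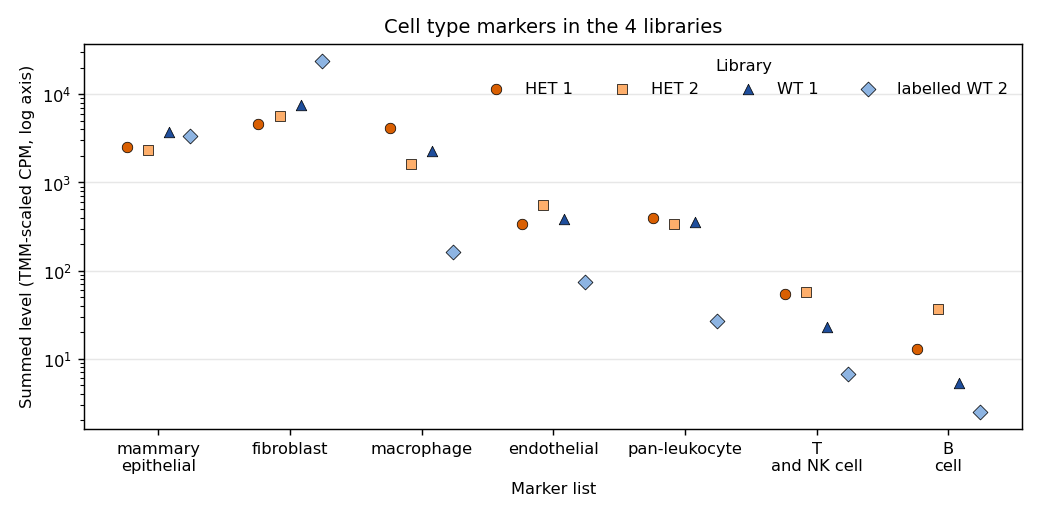
Summed level of cell type marker lists (TMM-scaled CPM, log axis) in each of the 4 libraries, 1 point per library. The library labelled WT 2 is lowest for macrophage, endothelial, pan-leukocyte, T and NK and B cell markers, and highest for fibroblast markers, at 23632 CPM against 4635 to 7645 CPM in the others.

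Proteins bound for secretion or the membrane fold inside the ER, where chaperones hold them, disulfide isomerases pair their cysteines and lectins read their sugars. When unfolded proteins accumulate, sensors in the ER membrane (IRE1, PERK and ATF6) start the unfolded protein response (UPR), which raises chaperone and degradation genes. IRE1 does so by cutting a short intron out of Xbp1 mRNA in the cytosol, which shifts the reading frame and yields the active transcription factor. In the mammary gland this system expands with milk secretion, and in tumours it is engaged under hypoxia and nutrient shortage.

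The Xbp1 intron is shown because it sets what the counts can say of this branch. It was located in the GENCODE transcripts as the 26 bases between paired IRE1 cleavage motifs, at chr11:5524279-5524304 (GRCm38, plus strand), inside the coding sequence. Capitals mark the intron, and 20 bases of exon stand on each side.
Xbp1: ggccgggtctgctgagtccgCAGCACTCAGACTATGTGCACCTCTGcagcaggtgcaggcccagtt
The unspliced site is held by 3 of the 4 annotated Xbp1 transcripts, and 0 of the 4 holds the spliced junction. The deposited values are counts per gene, so the spliced and unspliced forms cannot be told apart, and Xbp1 values below are of total Xbp1 RNA.

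The promoters of Hspa5, Hsp90b1, Calr and Herpud1 are shown because they hold elements known to be read in the UPR, and because the RNA of these genes differed in direction between the WT libraries. The windows are RefSeq's (GRCm38.p6), from 250 bases before to 50 bases after the annotated start, written 5′ to 3′ in the direction of the gene. Capitals mark the fixed letters of 3 motifs searched on both strands: the ER stress response element (CCAAT, then 9 bases of any kind, then CCACG), the ER stress response element II (ATTGG, 1 base of any kind, CCACG) and the UPR element core (TGACGTG).
Hspa5 (chr2:34771840-34772139, plus strand): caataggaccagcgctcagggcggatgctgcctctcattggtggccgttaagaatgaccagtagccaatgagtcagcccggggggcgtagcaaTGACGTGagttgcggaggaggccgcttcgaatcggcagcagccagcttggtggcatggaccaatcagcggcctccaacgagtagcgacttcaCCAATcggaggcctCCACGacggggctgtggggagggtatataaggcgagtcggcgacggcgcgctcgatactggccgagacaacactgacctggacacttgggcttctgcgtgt
Hsp90b1 (chr10:86705395-86705694, minus strand): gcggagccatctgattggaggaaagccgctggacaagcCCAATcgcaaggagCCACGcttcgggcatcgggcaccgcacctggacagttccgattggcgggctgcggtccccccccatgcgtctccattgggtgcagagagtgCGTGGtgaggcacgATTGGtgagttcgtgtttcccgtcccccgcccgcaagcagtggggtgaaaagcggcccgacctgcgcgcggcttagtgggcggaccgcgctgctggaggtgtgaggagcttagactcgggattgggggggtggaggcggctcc
Calr (chr8:84846882-84847181, minus strand): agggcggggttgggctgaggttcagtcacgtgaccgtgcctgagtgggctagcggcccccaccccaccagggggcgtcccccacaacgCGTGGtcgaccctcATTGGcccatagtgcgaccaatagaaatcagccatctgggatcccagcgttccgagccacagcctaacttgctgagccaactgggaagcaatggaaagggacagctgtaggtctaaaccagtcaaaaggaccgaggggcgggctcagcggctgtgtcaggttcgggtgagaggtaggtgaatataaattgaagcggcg
Herpud1 (chr8:94386179-94386478, plus strand): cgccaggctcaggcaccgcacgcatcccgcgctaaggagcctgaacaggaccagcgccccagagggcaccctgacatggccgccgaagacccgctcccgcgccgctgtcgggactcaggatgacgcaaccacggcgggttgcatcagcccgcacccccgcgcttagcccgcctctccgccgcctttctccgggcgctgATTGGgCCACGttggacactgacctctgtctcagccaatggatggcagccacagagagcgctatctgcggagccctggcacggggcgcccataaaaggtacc
Hspa5 holds the first element 65 bases before its start and the TGACGTG core 157 bases before it. Hsp90b1 holds the first element at 2 places, at 212 bases in the direction of the gene and at 107 bases on the opposite strand, and Calr holds it on the opposite strand at 162 bases. Herpud1 holds the second element 52 bases before its start, as ATTGGGCCACG. None of these matches overlapped another. The first element was found in 3 of the 10 genes and in 0.137% of all 27025 genes with a window. The second was found in 1 of the 10 and 0.0444% of all genes, and the TGACGTG core in 1 of the 10 and 2.22%. The motifs were chosen for their known part in the UPR, so these counts do not test enrichment. A match to letters is a description and not evidence of binding here.

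Across all 4 libraries the luminal chaperones were among the most abundant transcripts of these cells and the stress sensor was modest. Levels between genes are compared per kilobase of exon (TMM-scaled CPM per kb, median of 4 libraries). Calr, a lectin chaperone that also buffers calcium, was highest at 361 CPM per kb, followed by Hsp90b1, the HSP90 of the ER lumen, at 244. Hspa5, which encodes the master chaperone BiP, stood at 170.0 CPM per kb and Pdia4, a protein disulfide isomerase, at 120.2. These 4 lay above 98.4% or more of the genes tested. A gap of 6.40 times separated Pdia4 from the next gene, Xbp1, at 18.8 CPM per kb. Below it came Sdf2l1 (15.9), Herpud1 (11.4), Dnajb9 (9.91) and Edem1 (7.82), and Ern1, which encodes IRE1 alpha, was lowest at 4.12 CPM per kb, above 60.5% of genes tested.

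Some neighbours in this order were not separated by their spread over libraries. The ranges were apart between Hsp90b1 and Hspa5, Pdia4 and Xbp1, Sdf2l1 and Herpud1, and Edem1 and Ern1. They overlapped between Calr and Hsp90b1, although Calr was higher in 4 of 4 libraries, and between Hspa5 and Pdia4, where the library labelled WT 2 held the opposite order. Xbp1 and Sdf2l1 also overlapped, as did Herpud1 and Dnajb9, and Dnajb9 and Edem1. With lengths of the longest annotated transcript in place of all exons the order of the 10 genes was the same. The genes together took 0.335% and 0.363% of all counts in HET and 0.290% in WT 1 and 0.348% in the library labelled WT 2, and Hspa5, Hsp90b1 and Calr supplied 82.4% to 86.5% of that.

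**Figure D2:**
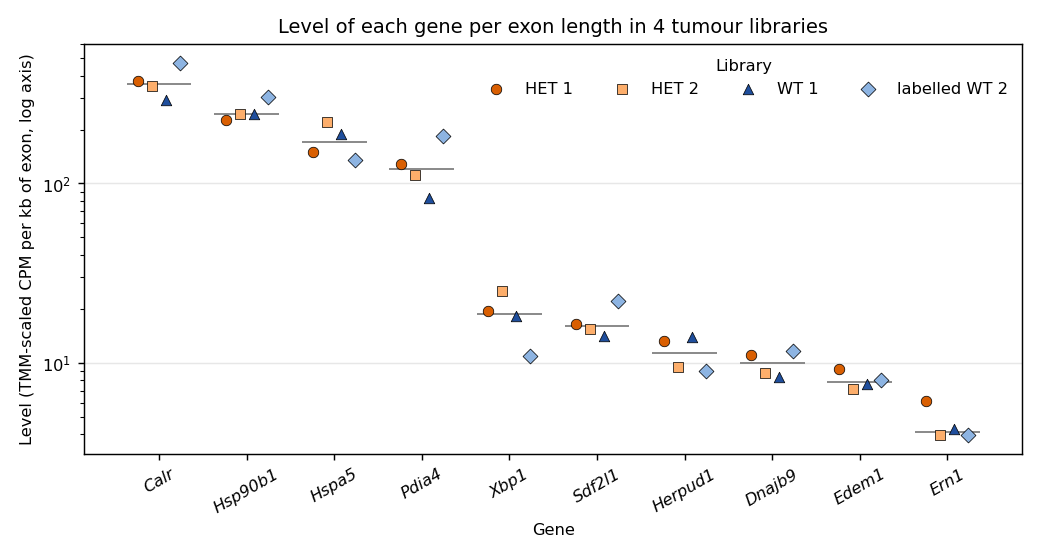
Level of each gene per kilobase of exon (TMM-scaled CPM per kb, log axis) in each of the 4 libraries, with a grey line at the median of the 4. Calr, Hsp90b1, Hspa5 and Pdia4 have medians of 120.2 to 361 CPM per kb, and the other 6 genes 4.12 to 18.8.

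The question for genotype was whether partial loss of Elf5 alters this machinery, and none of the 10 genes passed the test against the spread between libraries. By edgeR's quasi-likelihood test over all 21607 genes, 0 genes passed a Benjamini-Hochberg adjusted p under 0.05 (0%), and the adjusted p of the 10 genes lay between 0.986 and 0.999. The unadjusted p was under 0.05 for 817 genes (3.78%; 1.95% higher and 1.83% lower in HET) and for 0 of the 10. DESeq2 called 134 genes (0.62%) and limma-voom called 0 (0%), in both cases with 0 of the 10. Without WT 1 edgeR called 657 genes (3.04%) and without the library labelled WT 2 it called 9 (0.0417%), again with 0 of the 10. The fits without a WT library leave that genotype with 1 library, so the spread within WT is not measured in them. Their calls are therefore not further evidence on the 10 genes. Both HET libraries lay above both WT libraries for 1 of the 10 genes, against 19.6% of all genes tested, and below them for 0 of the 10, against 15.9%. The median log2 fold change of the 10 genes was -0.0084, against 0.041 over all genes tested, and it was 0.20 without the library labelled WT 2. All 10 are protein-coding, and in a fit of protein-coding genes alone their median was -0.0072, against -0.0355 over all genes in that fit.

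Hspa5 (ENSMUSG00000026864.13, chr2:34771970-34777547) had 636 and 933 CPM in HET 1 and HET 2 and 802 CPM in WT 1 and 575 CPM in the library labelled WT 2. The genotypes overlap, with the highest value in HET 2 and the lowest in the library labelled WT 2. BiP binds exposed hydrophobic stretches of new proteins and keeps the stress sensors silent while bound to them. Between HET and WT the log2 fold change was 0.19 ± 0.37 (SE, 2 libraries a genotype; HET over WT), with a 95% interval of -0.72 to 1.10, so a doubling was not excluded by these data; without the library labelled WT 2 the value was -0.033.

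Hsp90b1 (ENSMUSG00000020048.13, chr10:86690209-86705509) encodes a chaperone that matures integrins and Toll-like receptors. It had 907 and 988 CPM in HET and 979.6 CPM in WT 1 and 1221 CPM in the library labelled WT 2. HET 2 and WT 1 were almost level, and the library labelled WT 2 was highest. The log2 fold change was -0.22 ± 0.33 (SE; 95% interval -1.03 to 0.60), and it was -0.049 without the library labelled WT 2 and -0.032 with library size alone.

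Calr (ENSMUSG00000003814.8, chr8:84841850-84846934) had 1071 and 1006 CPM in HET, inside the WT values of 845 in WT 1 and 1361 in the library labelled WT 2. Its log2 fold change of -0.086 ± 0.38 (SE; 95% interval -1.01 to 0.84) turned to 0.10 with library size alone as scaling and to 0.30 without the library labelled WT 2. Pdia4 (ENSMUSG00000025823.9, chr6:47796141-47813430) had 309 and 268 CPM in HET, again between WT 1 at 199 CPM and the library labelled WT 2 at 441 CPM. The WT values thus bracketed HET for both genes. For Pdia4 the log2 fold change was -0.15 ± 0.44 (SE; 95% interval -1.22 to 0.92), and it was 0.54 without the library labelled WT 2 and -0.61 without WT 1.

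Dnajb9 and Sdf2l1 are co-factors of BiP: the first recruits it to misfolded clients and to IRE1 through a J domain, and the second forms a complex with an ER J-domain protein. Dnajb9 (chr12:44205559-44210326) had 28.2 and 22.3 CPM in HET and 21.2 CPM in WT 1 and 29.6 CPM in the library labelled WT 2, with a log2 fold change of -0.0063 ± 0.34 (SE). Sdf2l1 (chr16:17130138-17132383) had 18.3 and 16.99 CPM in HET, between 15.6 CPM in WT 1 and 24.4 CPM in the library labelled WT 2, and a log2 fold change of -0.18 ± 0.37 (SE). In both genes the HET libraries lay inside the range of the WT libraries. The sum over the 6 chaperone and folding genes was 2969 and 3235 CPM in HET and 2862 CPM in WT 1 and 3652 CPM in the library labelled WT 2, so it overlapped as well.

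Xbp1 was the 1 gene whose genotypes did not overlap. Xbp1 (ENSMUSG00000020484.18, chr11:5520659-5525893) had 62.8 and 81.2 CPM in HET and 59.3 CPM in WT 1 and 35.6 CPM in the library labelled WT 2. HET 1 was close to WT 1, and most of the separation came from a high HET 2 and a low library labelled WT 2. The log2 fold change was 0.60 ± 0.36 (SE; 95% interval -0.27 to 1.48), or 1.52-fold with bounds of 0.828 and 2.78, at an unadjusted p of 0.143 and an adjusted p of 0.986 by edgeR. It was positive in all alternatives run, at 0.28 without the library labelled WT 2 and 1.01 without WT 1.

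Plasma cells depend on Xbp1, so their markers are given beside it. All 13 plasma cell markers summed to 421 and 270.4 CPM in HET and 347 CPM in WT 1 and 555 CPM in the library labelled WT 2. The 12 other than Sdc1, an epithelial gene too that had 163 CPM or more in every library, summed to 69.7 and 107.7 CPM in HET and 51.5 CPM in WT 1 and 22.8 CPM in the library labelled WT 2. Mzb1, Tnfrsf17, Pou2af1, Ighm, Ighg2b and Ighg2c had 0 counts in the library labelled WT 2. Milk protein genes, marks of secretory differentiation, summed to 61.4 and 563 CPM in HET and 29.0 CPM in WT 1 and 4.20 CPM in the library labelled WT 2. The sum of these 12 plasma cell markers and the sum of the milk protein genes had the same order of libraries as Xbp1, although single genes did not all share it. Sdc1 was highest in the library labelled WT 2, Prdm1 and Csn2 were highest in WT 1, and Csn3 made up 519.7 of the 563 CPM of milk protein genes in HET 2. The part of either list in the Xbp1 values was not tested. For genes induced by tissue dissociation the sum separated the genotypes, at 7382 and 7270 CPM in HET and 5755 and 6422 CPM in WT. Of these 12 genes, Fosb, Junb, Ier2, Zfp36 and Btg2 were higher in HET without overlap, against 19.6% of all genes tested. Fos, Jun, Jund, Egr1, Ier3, Dusp1 and Nr4a1 overlapped between genotypes. The part of this list in the Xbp1 values was likewise not tested.

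Ern1 (ENSMUSG00000020715.9, chr11:106394650-106487852), the kinase and endoribonuclease that cuts Xbp1 mRNA, had 49.8 and 32.3 CPM in HET and 35.0 CPM in WT 1 and 32.2 CPM in the library labelled WT 2. HET 1 alone was high and the other 3 libraries were within 3 CPM of each other. Its log2 fold change of 0.29 ± 0.33 (SE; 95% interval -0.52 to 1.10) turned to -0.11 without HET 1. The ratio of Xbp1 to Ern1 CPM was 1.26 and 2.52 in HET and 1.69 in WT 1 and 1.11 in the library labelled WT 2, so it did not follow genotype.

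Herpud1 and Edem1 serve ER-associated degradation: the first organises the membrane complex that exports misfolded proteins, and the second trims mannose from glycoproteins to mark them for export. Herpud1 (ENSMUSG00000031770.16, chr8:94386438-94395377) had 31.0 and 22.04 CPM in HET and 32.6 CPM in WT 1 and 20.9 CPM in the library labelled WT 2. Each genotype thus held 1 high and 1 low library, and the log2 fold change was -0.011 ± 0.37 (SE; 95% interval -0.92 to 0.90). Edem1 (ENSMUSG00000030104.9, chr6:108828641-108859356) had 59.6 and 45.8 CPM in HET and 49.4 and 51.6 CPM in WT. It varied least of the 10, by 1.30-fold between its highest and lowest library, and its log2 fold change was 0.062 ± 0.29 (SE; 95% interval -0.65 to 0.77).

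**Figure D3:**
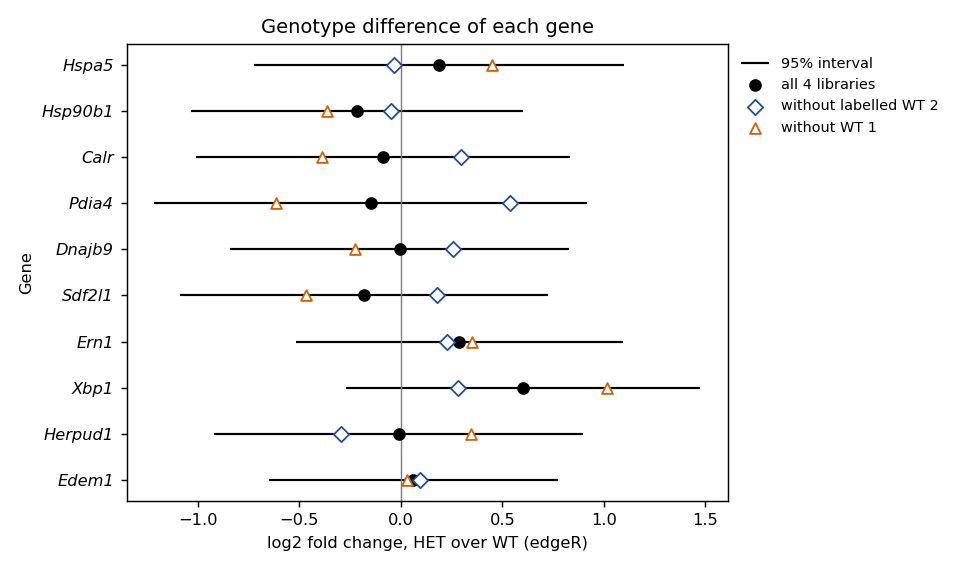
Log2 fold change of HET over WT for each gene (edgeR), with its 95% interval as a bar, from all 4 libraries (filled points), without the library labelled WT 2 (open diamonds) and without WT 1 (open triangles). All 10 intervals cross 0, and for Calr, Pdia4, Dnajb9, Sdf2l1, Hspa5 and Herpud1 the diamond and the triangle lie on opposite sides of 0.

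The genes differed more between the 2 WT libraries than between genotypes. These measures are unlike, because the first sets single libraries against each other and the second sets groups of 2 libraries. Single libraries vary more than averages of 2, so the gap within WT tends to be larger. For 9 of the 10 the gap between the library labelled WT 2 and WT 1 was larger than the fold change between genotypes, with a median absolute log2 difference of 0.56 within WT, 0.36 within HET and 0.17 between genotypes. Among the 7758 genes tested at a mean level at or above the lowest of the 10, the same medians were 0.41, 0.30 and 0.27, and the gap within WT was the larger for 64.9%. The library labelled WT 2 was the highest of the 4 for 5 of the 10 genes and the lowest for 4, against 59.8% of the 7758 genes at either end.

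Within WT the genes did not shift in 1 direction. Relative to WT 1, the library labelled WT 2 was higher for Pdia4 (2.22-fold), Calr (1.61-fold), Sdf2l1 (1.57-fold), Dnajb9 (1.40-fold), Hsp90b1 (1.25-fold) and Edem1 (1.04-fold). It was lower for Xbp1 (0.601-fold), Herpud1 (0.64-fold), Hspa5 (0.717-fold) and Ern1 (0.92-fold). Between the WT libraries, Hspa5 therefore went in the opposite direction to Pdia4, Calr, Sdf2l1, Dnajb9 and Hsp90b1. A comparison of WT 1 with the library labelled WT 2 does not say which of them shifted. The ratio of Hspa5 to Pdia4 CPM, chosen after the values were seen, was 2.06 and 3.48 in HET and 4.04 in WT 1 and 1.30 in the library labelled WT 2. For Hspa5 over Hsp90b1 it was 0.701 and 0.945 in HET and 0.819 and 0.471 in the same WT libraries. Fibroblast markers, with 10 of 10 detected in every library, were highest in the library labelled WT 2, and macrophage markers, with 12 of 12 detected in every library, were lowest there at 162 CPM, against 1639 to 4163 CPM in the others; their part in these shifts was not tested. Within HET, HET 1 was above HET 2 for 7 of the 10 genes and below it for Hspa5, Hsp90b1 and Xbp1.

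**Figure D4:**
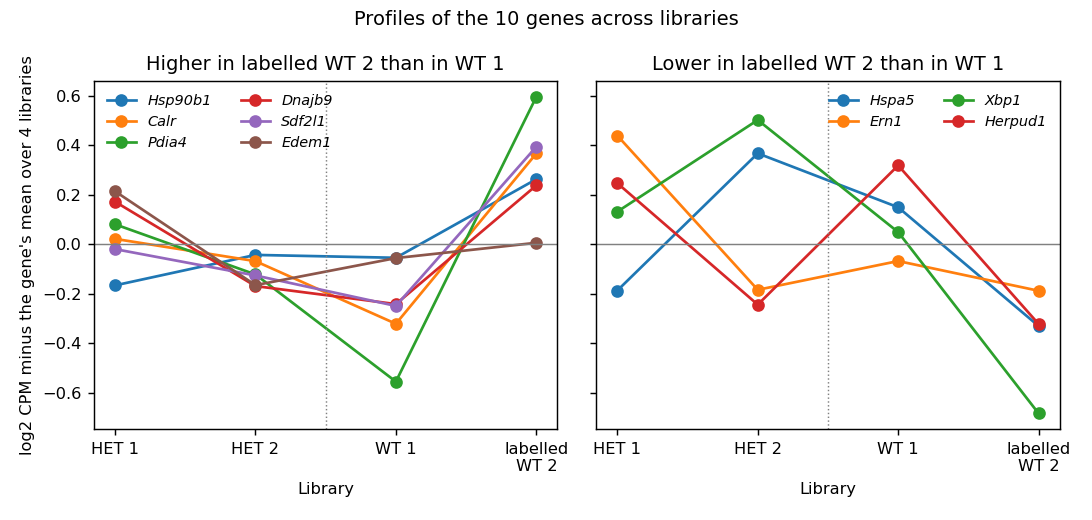
Log2 CPM of each gene minus its mean over the 4 libraries, with genes split by whether the library labelled WT 2 lies above WT 1 (left) or below it (right); lines join the points of 1 gene, and a dotted line separates HET from WT. Pdia4 spans from -0.55 in WT 1 to 0.60 in the library labelled WT 2, while Xbp1 is highest in HET 2 at 0.50 and lowest in the library labelled WT 2 at -0.68.

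The genes named here for profiles most like that of Hspa5 were not ER chaperones. Among 5226 protein-coding genes with a mean of at least 32 CPM, likeness was measured as the root mean square difference of log2 CPM centred over the 4 libraries. Among the nearest to Hspa5 were Ccdc34, Adgra3, Adnp and Rnh1, at differences of 0.0103 to 0.0346. Of the 6 other genes with a mean that high, the nearest was Xbp1, at 0.252 and place 781, and Pdia4 stood at 0.645 and place 4466. Nearest to Xbp1 were Arrb1, Ankrd44, Scarb1, Idh3g and Abca2, at 0.0667 to 0.0939, and Hspa5 was at place 120. With 4 libraries such nearness is a description of these samples.

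The rest of the pathway was read from 7 further ER and UPR lists with 83 genes, all tested, and 0 of the 83 passed over all genes in either direction by edgeR. Unadjusted p-values under 0.05 by edgeR belonged to 0 higher and 6 lower of the 83 genes, against 1.95% higher and 1.83% lower of all genes tested. Of these 6, 4 were in the PERK and ATF4 list, 1 in oxidative folding and 1 in ER to Golgi transport. The median log2 fold change was -0.18, against 0.041 over all genes tested. In a fit of protein-coding genes alone it was -0.18, against -0.0355 over all genes in that fit. With library size alone it was -0.0064, when the median of all genes was 0.22. Without the library labelled WT 2 it was -0.063, with 35 of the 83 above 0 in place of 23. The stress sensors and the proteases that release ATF6 had a median of -0.013 (3 of 6 above 0), with the PERK gene Eif2ak3 at -0.10 and Atf6 at 0.077. Mbtps2 and Atf6b, the members of smallest p, stood at 0.38 and -0.30. Other ER chaperones had a median of 0.049 (6 of 11 above 0). The BiP exchange factor gene Hyou1 had 122 and 154 CPM in HET and 97.6 CPM in WT 1 and 166 CPM in the library labelled WT 2, and the lectin chaperone gene Canx had a log2 fold change of -0.033. Manf, a secreted ER stress protein, was at 0.32 (0.74 without the library labelled WT 2 and 0.0014 without WT 1) and the glucosyltransferase gene Uggt1 at -0.36.

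In the lists for oxidative folding, translocation and transport most values were below 0, and no member passed. Oxidative folding genes and prolyl isomerases had a median log2 fold change of -0.39, with 10 of 12 below 0 (9 of 12 with library size alone). Their median was -0.21, with 7 of 12 below 0, once the library labelled WT 2 was left out. Txndc5, a disulfide isomerase, had 58.7 and 73.7 CPM in HET and 100.5 and 140.2 CPM in WT, and Ero1lb, an oxidase that recharges such isomerases, had 18.4 and 18.0 CPM in HET and 11.8 and 8.69 CPM in WT. These 2 genes, the smallest p of their list, pointed in opposite directions (unadjusted p = 0.0347 and 0.0697 by edgeR). Translocation and N-glycosylation genes had a median of -0.27 with 17 of 19 below 0, and -0.063 with 11 of 19 below 0 without the library labelled WT 2; with library size alone 13 of 19 were below 0. Ssr1, a subunit of the translocon-associated complex, stood at -0.57 (-0.33 without the library labelled WT 2), and Sec11c, a signal peptidase subunit, at 0.56.

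All 10 genes of ER to Golgi transport had a log2 fold change below 0 (median -0.42), although 3 of the 10 turned positive with library size alone and 2 without the library labelled WT 2. Kdelr3, a receptor that returns chaperones carrying a retrieval signal to the ER, had 8.50 and 9.20 CPM in HET and 17.5 and 19.4 CPM in WT (log2 fold change -1.06 ± 0.37, SE; unadjusted p = 0.0276 and adjusted p = 0.986 by edgeR), and its genotypes did not overlap. Kdelr2 had 87.0 and 88.4 CPM in HET and 83.5 CPM in WT 1 and 249 CPM in the library labelled WT 2, so its value of -0.92 rests on that library (0.070 without it). Other genes of ER-associated degradation had a median of -0.033 with 8 of 15 below 0. Sel1l, the scaffold of the export complex, stood at -0.27 and Derl1 at -0.43 (-0.069 without WT 1). Derl3, a member of low level at 1.88 and 5.79 CPM in HET and 1.43 and 0.641 CPM in WT, stood at 1.88 (0.81 without HET 2).

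**Figure D5:**
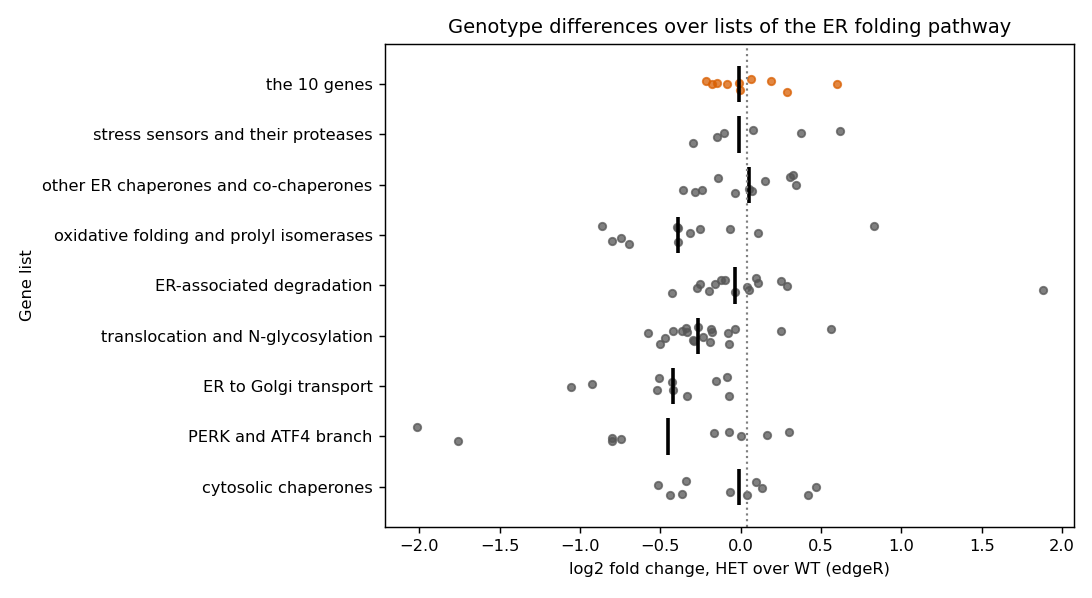
Log2 fold change of HET over WT (edgeR) for each tested gene of the 10 (orange) and of 8 further lists (grey), with a black line at each list's median and a dotted line at the median of all genes tested (0.041). The 10 genes lie between -0.22 and 0.60, and the PERK and ATF4 branch reaches -2.02.

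The PERK and ATF4 branch, which shares its trigger with the IRE1 and ATF6 branches but also answers amino acid shortage, had a median log2 fold change of -0.45, with 7 of 10 below 0 (5 of 10 with library size alone). Without WT 1 the median was -0.20. Atf4 had 164 and 173 CPM in HET and 302 and 261 CPM in WT, and Asns, its target in asparagine synthesis, 11.8 and 9.72 CPM in HET and 39.9 and 33.0 CPM in WT; both were lower in HET without overlap, and neither passed by edgeR (adjusted p = 0.986), while DESeq2 called Asns (adjusted p = 0.00739). Eif2s1, which encodes the translation factor subunit that PERK phosphorylates, stood at -0.80. Ddit3, which encodes CHOP, a factor of prolonged ER stress, did not follow them, at 32.8 and 37.5 CPM in HET and 38.0 and 32.1 CPM in WT. The comparison outside the ER was a list named cytosolic chaperones, which also holds the mitochondrial genes Hspd1 and Hspe1. Its median log2 fold change was -0.011, with 5 of 10 above 0. Hspd1 stood at 0.098 and Hspe1 at 0.42, and Hsp90aa1 at -0.51 and Hsp90ab1 at -0.44. Whether the 10 genes differ from the PERK and ATF4 branch in their response was not tested.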

How the data were processed

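RNA from 4 samples, 2 HET and 2 WT, was sequenced after enzymatic digestion of the tumours and a sort with antibodies to CD45, CD31 and TER119, per the labels' protocols. The authors deposited estimated counts per gene, made with Salmon with GRCm38.p5 as build, according to what the submitters' processing notes list. Its version, the annotation, the strandedness and the step from transcripts to genes were not given in the sources used here, so reads of overlapping or near-identical genes may be shared. All deposited values were whole numbers. Total counts were 14582943 and 12695132 in HET and 13152252 and 15307939 in WT. A count of 0 allows up to 3 counts (0.195 to 0.239 CPM), which covers counting error only.

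Of 51826 rows, 51633 matched GENCODE M21 by identifier with the version dropped, 0 rows named no gene and 0 columns belonged to other samples. HET was set against WT in edgeR 4.0.16 (R 4.3.3) with filterByExpr, TMM factors (1.06 and 1.07 in HET, 0.96 and 0.919 in WT) and the quasi-likelihood test on genotype alone, adjusted over 21607 genes. The 95% intervals use the moderated degrees of freedom. An exact permutation test of 2 against 2 cannot give a p below 0.33. DESeq2 1.42.0, limma-voom (limma 3.58.1), other scalings and filters, and leaving out each library were alternatives, and the test was checked on simulated data. The 10 genes, the lists and the rule for named genes (the 10, 8 fixed pathway genes, 2 of smallest p per list, and the 5 genes most like Hspa5 and most like Xbp1) were chosen with earlier results of these data known. A gene that the last part of the rule names is not reported here.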

Additional observations from a re-analysis of the deposited data

How the results depend on the processing

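The 10 genes missed an adjusted p of 0.05 in every alternative fit that kept all 4 libraries, while signs of values near 0 changed. Fits without 1 library leave a genotype with 1 library, so the spread within that genotype is not measured. For single genes only the fold changes of these fits are given, and their counts of genes called are not evidence on the 10 genes. Counts of genes called were 0 with all 4 libraries in edgeR, 324 with no filter beyond 1 count, 134 by DESeq2 and 0 to 657 without 1 library (657 without WT 1, 9 without the library labelled WT 2). The median log2 fold change of the 10 genes (-0.0084) was 0.077 with upper-quartile scaling, 0.17 with library size alone, 0.0012 with a filter of 1 CPM in 2 libraries, 0.0094 by limma-voom and -0.21 to 0.20 without 1 library. Library size alone moved the median of all genes to 0.22, against 0.041 with TMM. With upper-quartile scaling the values that changed sign were Calr 0.0007, Dnajb9 0.081, Herpud1 0.072, Canx 0.051, and the medians of the stress sensors 0.070, ER-associated degradation 0.055 and cytosolic chaperones 0.067. With library size alone they were Calr 0.10, Pdia4 0.043, Dnajb9 0.18, Sdf2l1 0.0053, Herpud1 0.16, Eif2ak3 0.078, Canx 0.15, and the medians of the stress sensors 0.17, ER-associated degradation 0.15 and cytosolic chaperones 0.17. With no filter they were Edem1 -0.034, Atf6 -0.0086, Hyou1 -0.038, Ddit3 -0.080 and the other ER chaperones -0.044. Relative log expression and DESeq2 both gave Ddit3 -0.036 and the other ER chaperones -0.0006. The 1 CPM filter gave Dnajb9 0.0048, and limma-voom gave Dnajb9 0.0023 and Herpud1 0.016. Asns was called with no filter and by DESeq2. Without 1 library in turn, values ran from -0.17 to 0.45 for Hspa5, -0.39 to 0.30 for Calr, -0.61 to 0.54 for Pdia4, -0.25 to 0.26 for Dnajb9, -0.47 to 0.18 for Sdf2l1, -0.11 to 0.50 for Ern1, -0.32 to 0.35 for Herpud1 and -0.20 to 0.17 for Edem1. They ran from -0.11 to 0.22 for Atf6, -0.26 to 0.50 for Hyou1, -0.17 to 0.11 for Canx, -1.51 to 0.070 for Kdelr2 and -0.16 to 0.13 for Ddit3. Among values that kept their sign, Hsp90b1 ran from -0.37 to -0.049, Xbp1 from 0.28 to 1.01, Eif2ak3 from -0.26 to -0.032, Mbtps2 from 0.12 to 0.50, Manf from 0.0014 to 0.74, Sel1l from -0.55 to -0.15, Derl1 from -0.71 to -0.069, Derl3 from 0.81 to 2.56, Ssr1 from -0.84 to -0.33 and Hsp90ab1 from -0.65 to -0.24. List medians ran from -0.26 to 0.026 for the stress sensors, -0.19 to 0.14 for the other ER chaperones, -0.13 to 0.045 for ER-associated degradation and -0.53 to 0.12 for cytosolic chaperones. They ran from -0.31 to -0.063 for the 7 ER and UPR lists together, -0.60 to -0.21 for oxidative folding, -0.37 to -0.063 for translocation and N-glycosylation, -0.59 to -0.28 for ER to Golgi transport and -0.55 to -0.20 for the PERK and ATF4 branch. The cause of these changes was not tested. No paired analysis was possible because the labels name no litter, animal or batch that a WT and a HET sample share. Both WT titles end in T1, and the HET titles in T1 and T2, which does not pair them. The Dnajb9 and Sdf2l1 values rest on 196 to 435 counts per library, so counting error alone matters more for them than for the abundant chaperones.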
